A study of Mus musculus with 9 samples.

Results

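The genes described here encode the digestive machinery of the lysosome: its proteases, its enzymes of glycan and lipid breakdown, proteins of its membrane, subunits of the proton pump V-ATPase, and the transcription factors Tfeb and Tfe3. They are 49 named genes of the 19938 mouse genes measured. A gene was taken from probe sets (groups of array probes for a transcript) that name no other gene, and where several did so the probe set with the highest mean over the 9 arrays was used. All 49 genes had such a probe set, and only Arsb had more than 1.

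RNA was measured on Affymetrix gene arrays in mouse dendritic cells, immune cells that take up, digest and present antigen, differentiated over 8 days from bone marrow progenitors. The study asked how a knockdown of JmjD2d, the histone demethylase encoded by Kdm4d that acts on lysine 9 of histone H3, bears on the cells stimulated with LPS (lipopolysaccharide, the bacterial ligand of Toll-like receptor 4). There were 3 groups of 3 arrays: untransduced wild-type cells without stimulation, untransduced wild-type cells given 100 ng/ml LPS for 4 h, and JmjD2d-knockdown cells given the same LPS. The design text describes 3 independent cultures. Progenitors of all groups were expanded with IL-3, IL-6 and SCF (20 ng/ml per cytokine), then kept in 4% GM-CSF supernatant with 5 ng/ml SCF for 4 days and in GM-CSF alone for another 4 days. The knockdown cells carried a retroviral hairpin against the JmjD2d coding sequence and were selected in 2 mM histidinol, so transduction and selection cannot be told apart from the loss of JmjD2d. The 9 arrays included no control hairpin and no unstimulated knockdown cells.

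Lysosomes are acidic compartments in which proteins, glycans and lipids delivered by uptake or autophagy are broken down. The V-ATPase pumps protons into them, and most of the hydrolases work only at the low pH that results. In dendritic cells the same proteases process antigen and the invariant chain for presentation on MHC class II, and V-ATPase activity is known to be regulated as the cells mature. Tfeb and Tfe3 are related factors that bind the palindrome CACGTG, often in the longer form TCACGTGA, near the start of many lysosomal genes.

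The sequences of these promoters are shown first, because this motif is a common feature of lysosomal genes. RefSeq promoters (250 bases before to 50 after the transcription start, build GRCm38.p6) were in the table for 40 of the 49 genes. CACGTG stood in the promoters of 17 of those 40 (42.5%), against 8.09% of all 27025 genes in the table and 9.5% of the 15614 genes that were also on the arrays. TCACGTGA, which contains the shorter motif, stood in 7 of 40 (17.5%), against 1.12% and 1.52%. Counted by promoter, the shares were 36.2% of the 47 promoters of these genes against 7.15% of 32851 for CACGTG, and 14.9% against 0.974% for TCACGTGA. Both motifs read the same on either strand. Of 26 matches, 17 lay in the 100 bases before the start, and Lamp1, a main glycoprotein of the lysosomal membrane, held the most, 4. A match is a description of the letters and not a bound site. Ctsb, Ctsh, Galns, Asah1, Npc1, Atp6v0d2, Atp6v1b2, Atp6v1c1 and Atp6v1h are named only.

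The stretch before the start of Sgsh is shown because Sgsh had the largest difference among these genes. Windows of 30 bases are shown for Naglu, Lgmn and Arsa, the other genes with CACGTG called lower with LPS in the main or the paired fit described below. Lgmn and Arsa were called in the paired fit and not in the main fit. Windows are also shown for 4 holders of the longer form (Ctsd, Mcoln1, Atp6v0d1, Atp6v1a). All are written 5′ to 3′ on the strand of the gene, with CACGTG in capitals, and the distance given is that of the first capital from the start.
Sgsh, chr11:119355511-119355760, minus strand, the 250 bases before the start: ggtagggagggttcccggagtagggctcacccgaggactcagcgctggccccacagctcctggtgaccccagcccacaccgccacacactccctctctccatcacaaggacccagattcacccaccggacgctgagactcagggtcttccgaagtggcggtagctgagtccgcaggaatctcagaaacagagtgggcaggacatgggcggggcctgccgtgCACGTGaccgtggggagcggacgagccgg
Naglu, chr11:101070009-101070038, plus strand, 73 bases before the start: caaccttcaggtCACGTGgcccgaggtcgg
Lgmn, chr12:102439124-102439153, minus strand, 49 bases before the start: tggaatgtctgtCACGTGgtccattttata
Arsa, chr15:89477423-89477452, minus strand, 16 bases before the start: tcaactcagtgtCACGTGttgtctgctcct
Ctsd, chr7:142387908-142387937, minus strand, 98 bases before the start: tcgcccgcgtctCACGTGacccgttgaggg
Mcoln1, chr8:3500462-3500491, plus strand, 45 bases before the start: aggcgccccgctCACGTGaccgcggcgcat
Atp6v0d1, chr8:105566050-105566079, minus strand, 3 bases before the start: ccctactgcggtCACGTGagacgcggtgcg
Atp6v1a, chr16:44139373-44139402, minus strand, 131 bases before the start: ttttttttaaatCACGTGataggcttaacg
In the last 4 windows the capitals are flanked by t and a, which completes the 8-base form, whereas in Naglu, Lgmn, Arsa and Sgsh they are not flanked by both.

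**Figure D1:**
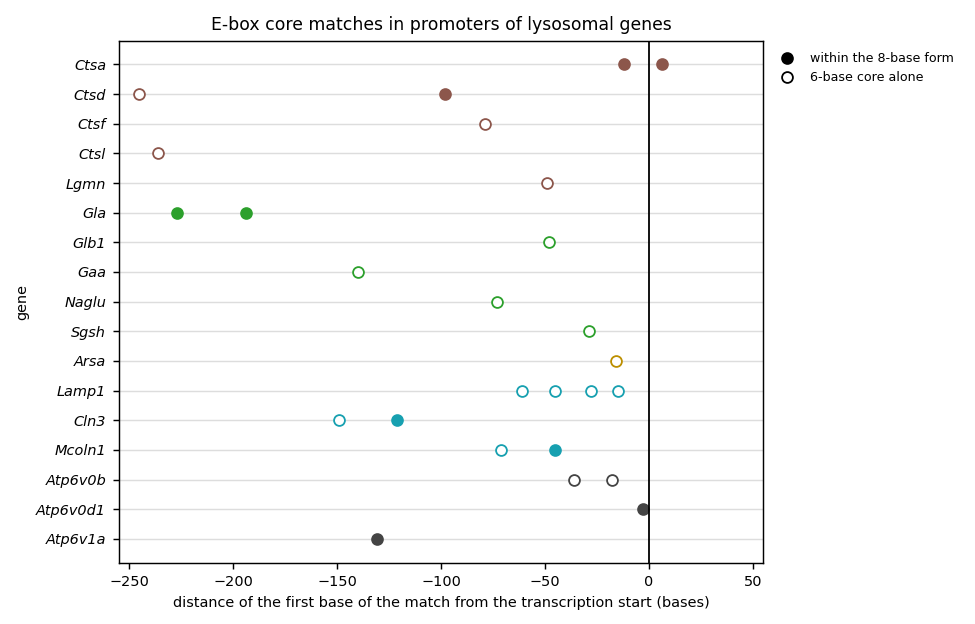
Positions of CACGTG in the promoters of the 17 lysosomal genes that hold it; the horizontal axis is the distance in bases of the first base of each match from the RefSeq transcription start, and each row is a gene. Filled points are the matches inside TCACGTGA, open points the 6-base core alone, and colours mark proteases (brown), glycan enzymes (green), a lipid enzyme (ochre), membrane proteins (cyan) and V-ATPase subunits (grey); 17 of the 26 matches lie in the 100 bases before the start.

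Array medians over all genes were close, from 7.54 to 7.66 on the log2 scale, and arrays of a group correlated by 0.985 to 0.997. The mean log2 level of 12 dendritic cell markers was 11.25, 10.17 and 10.88 in unstimulated replicates 1, 2 and 3, 11.24, 10.30 and 10.85 in wild-type cells with LPS, and 10.29, 9.08 and 9.18 in knockdown cells. Replicate 2 was the lowest of each group, but in the knockdown group replicate 3 lay close to it and replicate 1 stood apart. Results are also given without the 3 arrays numbered 2, an alternative chosen after seeing the data. Il12b, an LPS target, went from a mean of 7.17 to 13.44 with LPS. Kdm4d averaged 7.69 in LPS-treated wild-type cells and 7.31 in knockdown cells, a log2 difference of -0.37 (SE 0.13, adjusted p = 0.278), lower in 3 of 3 replicate numbers but not past the threshold. Dendritic cell markers were measured for 12 of 12 genes, and none of these genes was called between the LPS-treated groups. The whole lists of macrophage markers (9 of 10 measured, 9.40 to 9.78 over all arrays) and lymphocyte markers (5 of 6 measured, 5.59 to 5.83) spanned narrower ranges. Neutrophil markers (10 of 10) ranged from 7.48 to 10.40 and mast cell and basophil markers (10 of 10) from 6.31 to 7.45. Cd86, a maturation marker, averaged 9.79 in wild-type arrays with LPS and 7.32 in the knockdown ones (difference -2.47, adjusted p = 0.00929).

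Differences are between group means of deposited log2 values, with the standard error (SE) of a limma model over the 9 arrays. A gene was called changed at a Benjamini-Hochberg adjusted p under 0.05 over all 19938 genes, in two-sided tests. Values of a gene are given in replicate order 1, 2 and 3. The paired fit is the same model with the replicate number as a block. The mean levels of the 49 probe sets ran from 6.96 (Ctsf) to 14.15 (Psap), with a median of 12.43. Since each probe set responds differently, these levels were not ranked between genes.

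LPS in wild-type cells lowered 8 of the 49 lysosomal genes and raised none. The genes that fell were Sgsh, Naglu and Hexa among the glycan enzymes, Galc and Npc1 among the lipid enzymes and carriers, and the V-ATPase subunits Atp6v0d2, Atp6v0a1 and Atp6v1b2. Sgsh fell 3.03-fold, and the others by 1.23-fold to 1.51-fold. No protease, none of the genes grouped here as membrane proteins and neither transcription factor was called in this fit. Npc1, also a membrane protein, was grouped with the lipid enzymes and carriers.

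The 8 genes are 16.3% of the 49, against 6.86% of all genes called lower and 3.99% called higher with LPS. Among genes at or above the 40th percentile of level the share called lower was 11%, and among the 901 genes with a mean level of 12 or more, a bound chosen after the values were seen, it was 7.1%. Of the 31 lysosomal genes above that bound, 5 were called lower. Differences were below 0 for 42 of the 49 genes (85.7%, against 40.3% of all genes), and their median was -0.19 against 0.04 over all genes. These genes have high signal, and the shares below 0 were 58.9% of the 901 genes at a level of 12 or more (median -0.05) and 54.9% of the genes at or above the 40th percentile (median -0.04). In 22 genes all 3 LPS values lay below all 3 unstimulated values, and only Atp6v1e1 had them all above. Over all genes the shares were 16.5% below and 12.8% above. Among genes at or above the 40th percentile they were 25.9% and 13.2%, and among the 901 genes 27.7% and 23.9%. Of the 31 lysosomal genes above that bound, 16 lay wholly below and 1 wholly above. The median difference was -0.28, -0.18 and -0.17 in replicate numbers 1, 2 and 3. Without adjustment, 21 of the 49 had p under 0.05 and were lower, and 2 were higher, against 16.0% and 10.3% of all genes. Those shares were 25.2% and 12.5% at or above the 40th percentile, and 21.9% and 22.1% among the 901 genes. Neutrophil markers had a median difference of 0.86 with LPS over 10 genes (none called) and mast cell and basophil markers of 0.14 over 10 (1 higher). Their part in the lysosomal values was not tested.

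The paired fit called 12 of the 49 lower, against 9.57% of all genes. It kept 7 of the 8, all but Galc (adjusted p = 0.0361 without and 0.0535 with the block), and added Lgmn, Man2b1, Arsa, Smpd1 and Tfeb. Over all alternatives the adjusted p ran from 0.00931 to 0.123 for Galc, 0.00931 to 0.504 for Lgmn and 0.00241 to 0.247 for Smpd1. The lowest value of each of these genes came from the fit without the 3 arrays numbered 2. The ranges were 0.0226 to 0.205 for Man2b1, 0.0371 to 0.475 for Arsa and 0.00513 to 0.259 for Tfeb. Leaving out an array of either group gave 3 to 11 lower genes: 3 without replicate 1 of either group or without LPS replicate 3, 4 without unstimulated replicate 3, 9 without unstimulated replicate 2 and 11 without LPS replicate 2. The share of all genes called lower moved with them, from 2.38% to 2.88% in the fits with 3 or 4 to 6.56% with 9 and 10.9% with 11. Sgsh, Npc1 and Atp6v0d2 were called in each of those fits. Without the 3 arrays numbered 2, 19 were called lower and 1 higher (Atp6v1e1), against 15.8% and 8.81% of all genes; all 8 were among the 19.

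**Figure D2:**
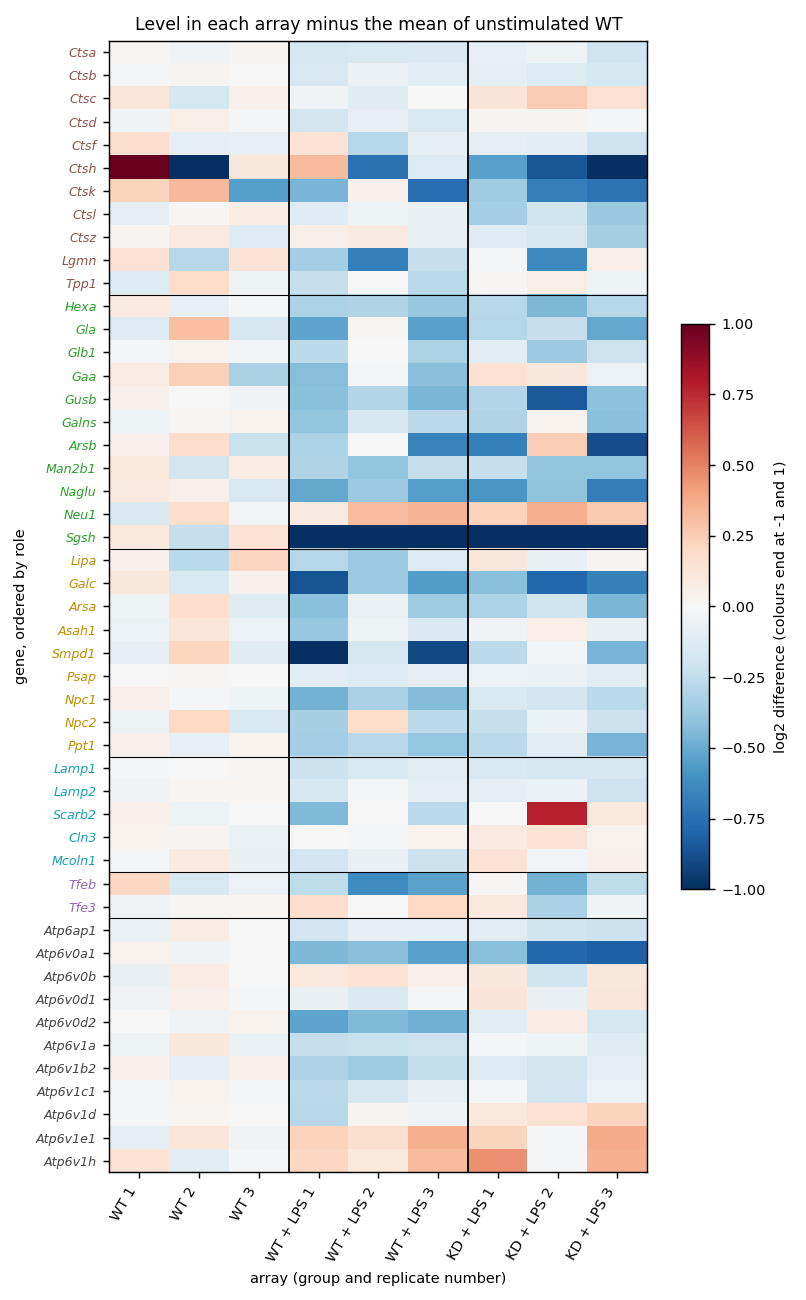
Log2 level of each of the 49 lysosomal genes (rows, grouped by role) in each of the 9 arrays (columns) minus its mean in the 3 unstimulated wild-type (WT) arrays; KD is JmjD2d knockdown, blue is lower and red higher, and colours end at -1 and 1. Most rows are blue in the LPS-treated columns: 42 of 49 differences are below 0 in wild-type cells, and Sgsh is below the colour range in all 6.

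The counts by role given from here on stand beside 6.86% of all genes called lower with LPS and 3.99% called higher. The lower share was 11% at or above the 40th percentile of level and 7.1% at a mean level of 12 or more. Differences between roles were not tested. Among the 11 enzymes of glycan and glycosaminoglycan breakdown, 3 fell with LPS, none rose, and the median difference was -0.33. Sgsh encodes the sulfatase that removes sulfate from the glucosamine of heparan sulfate. Its log2 level was 9.91, 9.57 and 9.95 in unstimulated wild-type arrays, 8.15, 8.33 and 8.16 in wild-type arrays with LPS, and 8.30, 8.10 and 8.14 in knockdown arrays with LPS. The unstimulated values stood more than a log2 unit above all 6 others, with no overlap. With LPS in wild-type cells Sgsh fell by 1.60 (SE 0.11, adjusted p = 0.000294, paired 0.00107), in 3 of 3 replicate numbers.

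Naglu encodes the glucosaminidase that acts on the same heparan sulfate chains. It measured 11.23, 11.19 and 10.97 without stimulation, 10.62, 10.77 and 10.58 with LPS in wild-type cells, and 10.55, 10.73 and 10.44 with LPS in knockdown cells. Both stimulated groups lay wholly below the unstimulated one, and the wild-type difference was -0.48 (SE 0.10, adjusted p = 0.0216). Hexa encodes the alpha subunit of beta-hexosaminidase, which trims gangliosides and glycans. Hexa values were 13.45, 13.28 and 13.34 without stimulation, 13.04, 13.05 and 12.98 in wild-type cells with LPS, and 13.08, 12.90 and 13.07 in knockdown cells with LPS. They separated in the same way, and the wild-type difference was -0.33 (SE 0.07, adjusted p = 0.0228).

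Man2b1, the lysosomal alpha-mannosidase, was at 13.71, 13.42 and 13.68 in unstimulated arrays, at 13.30, 13.21 and 13.37 in wild-type arrays with LPS, and at 13.37, 13.20 and 13.21 in knockdown arrays. Its highest LPS value lay just under its lowest unstimulated value, and the difference of -0.31 (SE 0.09) had an adjusted p of 0.0697, or 0.0366 in the paired fit. Gusb, the beta-glucuronidase, was at 12.39, 12.34 and 12.31 without stimulation, at 11.93, 12.05 and 11.89 in wild-type cells with LPS, and at 12.05, 11.50 and 11.94 in knockdown cells. The groups with LPS did not overlap the unstimulated one, but the wild-type difference of -0.39 (SE 0.13, adjusted p = 0.0986) was not called. Neu1, a sialidase, was among the few with a positive difference. Its values were 10.47, 10.80 and 10.59 without stimulation, 10.71, 10.93 and 10.95 in wild-type cells with LPS, and 10.85, 10.98 and 10.88 in knockdown cells. It was higher in 3 of 3 replicate numbers with LPS in wild-type cells, with a difference of 0.25 (SE 0.10, adjusted p = 0.165) that was not called.

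The remaining glycan enzymes were not called. Their differences were -0.36 for Gla (alpha-galactosidase), -0.33 for Arsb (arylsulfatase B), -0.29 for Gaa (the glycogen-degrading alpha-glucosidase), -0.27 for Galns (a sulfatase of keratan and chondroitin sulfate) and -0.19 for Glb1 (beta-galactosidase). The other probe set of Arsb gave -0.32 (SE 0.27).

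All 9 enzymes and carriers of lipid breakdown had a difference below 0 with LPS, with a median of -0.28, and 2 were called. Npc1 encodes the membrane protein that exports cholesterol from the lysosome. It measured 13.01, 12.95 and 12.92 without stimulation, 12.49, 12.63 and 12.52 in wild-type cells with LPS, and 12.80, 12.77 and 12.69 in knockdown cells with LPS. The 3 groups did not overlap, with the knockdown arrays between the others. Npc1 fell by 0.41 in wild-type cells (SE 0.06, adjusted p = 0.00616).

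Galc, which removes galactose from galactosylceramide, was at 10.30, 10.03 and 10.22 without stimulation, at 9.32, 9.82 and 9.62 in wild-type cells with LPS, and at 9.76, 9.40 and 9.51 in knockdown cells. Its LPS values were spread over a wider range but stayed below all unstimulated values, and the difference was -0.60 (SE 0.15, adjusted p = 0.0361). That call was lost in the paired fit, and also with median-centred arrays, with only the 2 groups in the fit and over all probe sets. Smpd1, the acid sphingomyelinase, was at 11.16, 11.47 and 11.13, then at 10.18, 11.07 and 10.35, and in knockdown cells at 10.99, 11.22 and 10.79. Replicate 2 was the highest of each group, the wild-type groups did not overlap, and their difference of -0.72 (SE 0.23) had an adjusted p of 0.0835, or 0.0149 in the paired fit.

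Arsa, which removes sulfate from sulfatides, was at 9.24, 9.45 and 9.16, then at 8.86, 9.21 and 8.92 with LPS, and at 8.96, 9.08 and 8.83 in knockdown cells. Wild-type groups overlapped, yet each LPS value lay below the unstimulated value of its number (difference -0.28, SE 0.12, adjusted p = 0.174, paired 0.0371). The other lipid genes were not called: Ppt1 (palmitoyl-protein thioesterase) was at -0.34 with an adjusted p of 0.0578, Lipa (acid lipase) at -0.26, Asah1 (acid ceramidase) at -0.19, Npc2 (the soluble cholesterol carrier) at -0.14 and Psap (the precursor of the saposins) at -0.11.

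Of the 11 V-ATPase genes, 3 fell with LPS, 8 had a difference below 0, and the median was -0.13. Atp6v0d2 encodes an alternative form of the d subunit in the membrane sector, best known from osteoclasts and macrophages. It measured 13.79, 13.75 and 13.83 without stimulation, 13.26, 13.35 and 13.31 in wild-type cells with LPS, and 13.68, 13.86 and 13.62 in knockdown cells with LPS. Only the wild-type LPS group stood apart; the other groups overlapped. Its fall with LPS in wild-type cells was 1.40-fold, a difference of -0.48 (SE 0.07, adjusted p = 0.00574). Atp6v0d1, the broadly expressed form of that subunit, had a difference of -0.08 (SE 0.07, adjusted p = 0.493); the difference between the forms was not tested.

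Atp6v0a1, a form of the large a subunit of the membrane sector, was at 13.30, 13.23 and 13.27 without stimulation, at 12.81, 12.85 and 12.72 in wild-type cells with LPS, and at 12.85, 12.48 and 12.45 in knockdown cells. All 6 stimulated values were below the 3 unstimulated ones, and the wild-type difference was -0.47 (SE 0.10, adjusted p = 0.0259). Atp6v1b2, a form of the B subunit of the cytosolic, ATP-splitting sector, was at 13.43, 13.29 and 13.44, then at 13.07, 13.03 and 13.14, and in knockdown cells at 13.25, 13.20 and 13.29. Its wild-type groups did not overlap, and the difference was -0.30 (SE 0.06, adjusted p = 0.0219).

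Other V-ATPase members were not called in wild-type cells. The catalytic A subunit Atp6v1a was at -0.22 (SE 0.07, adjusted p = 0.0702), Atp6v1c1 at -0.17, the accessory protein Atp6ap1 at -0.13 and Atp6v1d at -0.09. Positive differences were measured for Atp6v1e1 (0.25), Atp6v1h (0.21) and the proteolipid subunit Atp6v0b (0.10), each higher in 3 of 3 replicate numbers.

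**Figure D3:**
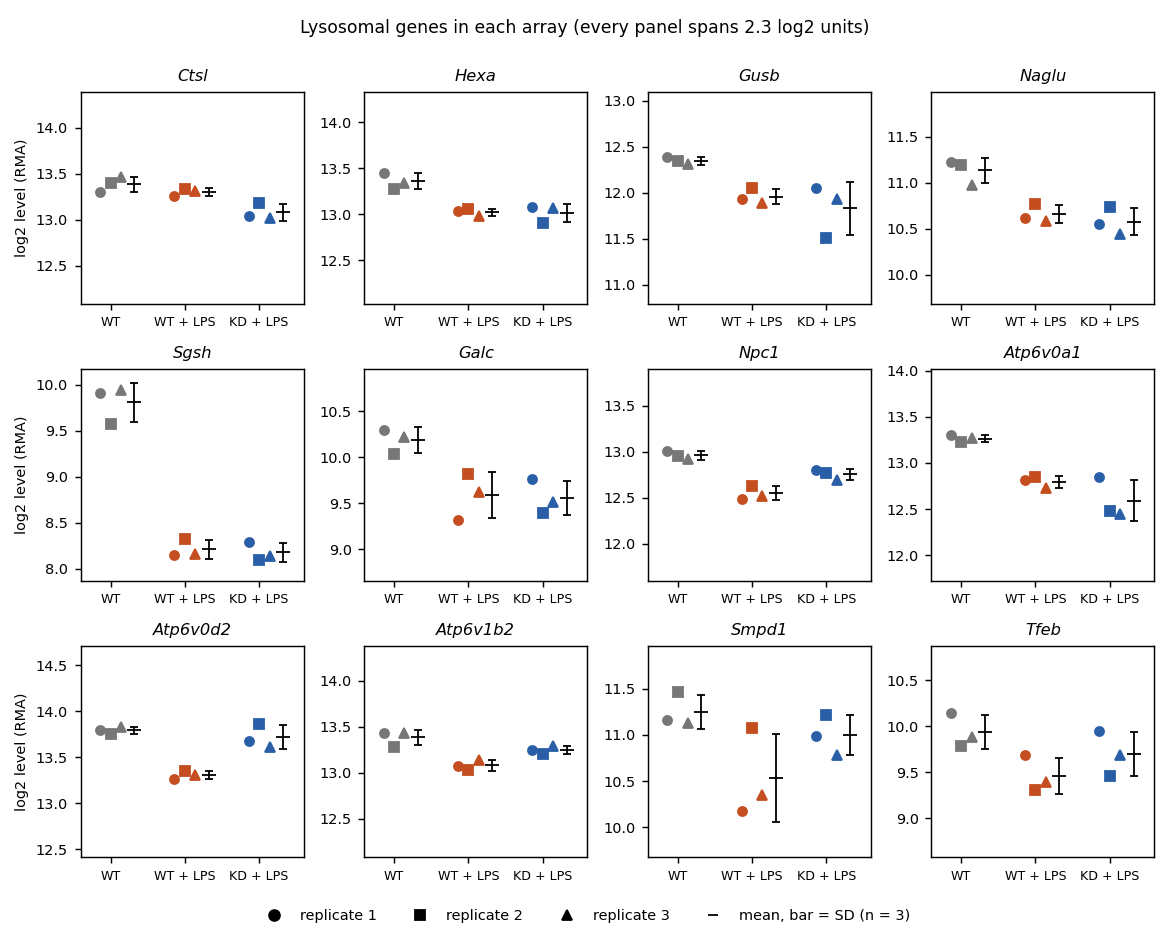
Log2 levels of 12 lysosomal genes by array; symbols give the replicate number, colours the group (WT unstimulated, WT + LPS, KD + LPS), and the bar the mean with SD (n = 3). Every panel spans the same number of log2 units; Sgsh lies between 8.10 and 8.33 in all 6 stimulated arrays, and Atp6v0d2 is low only in the WT + LPS group, at 13.26 to 13.35.

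No protease was called with LPS in wild-type cells: 10 of 11 had a difference below 0, the median was -0.14, and the range was -0.42 to 0.02. Lgmn encodes legumain, an asparagine-specific protease of antigen processing. It measured 12.94, 12.52 and 12.94 without stimulation, 12.46, 12.11 and 12.57 in wild-type cells with LPS, and 12.78, 12.16 and 12.85 in knockdown cells. Replicate 2 was the lowest of every group, so the groups overlapped although each LPS value was below the unstimulated value of its number. The difference of -0.42 (SE 0.21) had an adjusted p of 0.245, or 0.0157 in the paired fit. Ctsk and Ctsh, cysteine cathepsins, had wide spreads within groups. Ctsk was at 9.56, 9.67 and 8.79, then at 8.88, 9.39 and 8.58, and in knockdown cells at 8.99, 8.65 and 8.60 (LPS difference -0.39, SE 0.27). Ctsh was at 8.78, 6.66 and 7.89, then at 8.09, 7.03 and 7.64, and in knockdown cells at 7.24, 6.92 and 6.55. With an SE of 0.50, the largest among these genes, its LPS difference of -0.19 had a 95% interval from -1.33 to 0.96.

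The other cathepsins had small differences that were not called. These were -0.16 for Ctsa (a carboxypeptidase that also protects Glb1 and Neu1), -0.14 for the aspartic protease Ctsd, -0.12 for Ctsb, -0.09 for Ctsl, -0.05 for Ctsc (which activates granule serine proteases) and 0.02 for Ctsz, with SEs of 0.05 to 0.09. The tripeptidyl peptidase Tpp1 was at -0.17 and Ctsf at -0.08.

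Of the 5 genes grouped as membrane proteins none was called, and the median was -0.16. Lamp1 was at -0.16 (SE 0.05, adjusted p = 0.0813), Lamp2 at -0.10, Mcoln1 (a calcium channel) at -0.16 and Cln3 at 0.01. Scarb2, the receptor that carries beta-glucocerebrosidase to the lysosome, was at 10.89, 10.79 and 10.84 without stimulation, at 10.40, 10.84 and 10.58 with LPS, and at 10.84, 11.62 and 10.95 in knockdown cells (LPS difference -0.23, SE 0.20). The wild-type groups overlapped.

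Tfeb was at 10.15, 9.79 and 9.88 without stimulation, at 9.68, 9.31 and 9.40 in wild-type cells with LPS, and at 9.95, 9.47 and 9.68 in knockdown cells. Its LPS difference was -0.47 (SE 0.15), with an adjusted p of 0.0884, or 0.00513 in the paired fit, which called it lower. Tfe3 had a difference of 0.12 (SE 0.11, adjusted p = 0.488). Set against the promoters, 2 of the 17 genes with CACGTG fell with LPS (Naglu and Sgsh; median difference -0.16) and 3 of the 23 without it (Hexa, Galc and Atp6v0a1; median -0.23). None of the 7 with TCACGTGA was called (median -0.16). The remaining 3 genes that fell (Npc1, Atp6v0d2 and Atp6v1b2) had no promoter in the table. Over all genes 6.86% were called lower with LPS, and 11% of those at or above the 40th percentile of level. No difference between these sets was tested.

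Knockdown against wild-type cells after LPS gave no call among the 49 lysosomal genes, higher or lower, against 0.401% and 0.361% of all genes. Differences ran from -0.69 (Ctsh) to 0.53 (Scarb2) around a median of 0.03, and adjusted p-values from 0.052 to 0.986. At an unadjusted p under 0.05 there were 9 higher and 2 lower, against 1459 and 1155 of the 19938 genes. Among all genes with a mean level of 12 or more the shares were 14.1% and 11.7%. The 95% interval of the difference lay within 1 log2 unit of 0 for 48 of the 49 genes and within 0.5 for 39. The knockdown values all lay above the wild-type ones in 10 genes and all below in 2 (Ctsl and Ctsz), against 8.21% and 8.38% of all genes. Among all genes with a mean level of 12 or more these shares were 19.6% and 14%. For the 31 lysosomal genes at that level they were 29% and 6.45%. Dendritic cell markers were lower in the same knockdown arrays, with a median difference of -1.28 over 12 genes and none called; their part in these values was not tested. In bulk RNA, fewer cells of a type and less RNA per cell cannot be told apart.

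Atp6v0d2 had the smallest adjusted p. It was higher in the knockdown cells by 0.41 (SE 0.07, 95% interval 0.25 to 0.58, a 1.33-fold difference), in 3 of 3 replicate numbers and with no overlap, at an adjusted p of 0.052. The paired fit called it higher (adjusted p = 0.0449), the only lysosomal gene it called, against 1.51% of all genes called higher. Over the alternatives tried its adjusted p ran from 0.0302, with a trended and robust prior, to 0.172, without wild-type LPS replicate 3. Without the 3 arrays numbered 2, Smpd1 and Atp6v0d2 were called higher, against 2.14% of all genes. This comparison and the LPS comparison share the LPS-treated wild-type arrays, in which Atp6v0d2 was low, so the differences of -0.48 and 0.41 are not independent.

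Larger in size were the differences of Ctsh (-0.69, 95% interval -1.83 to 0.46), Scarb2 (0.53, 0.08 to 0.98) and Smpd1 (0.47, -0.05 to 0.99), and the fifth largest was that of Gaa (0.36, -0.01 to 0.73); their adjusted p-values ran from 0.301 to 0.61. Scarb2 was higher in the knockdown cells in 3 of 3 replicate numbers, with an adjusted p from 0.0697 to 0.644 over the alternatives. The lowest value came from the fit without the 3 arrays numbered 2. Gaa was at 10.11, 10.27 and 9.71 without stimulation, at 9.60, 10.01 and 9.61 in wild-type cells with LPS, and at 10.18, 10.14 and 9.97 in knockdown cells; its stimulated groups overlapped.

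By role, the median knockdown difference was -0.02 for proteases, -0.03 for glycan enzymes, 0.06 for lipid genes, 0.08 for membrane proteins and 0.08 for the V-ATPase. Of the genes that fell with LPS in wild-type cells, Npc1 differed by 0.20 (95% interval 0.06 to 0.35) and Atp6v1b2 by 0.17 (0.02 to 0.32), neither of them called. Sgsh differed by -0.03, with an interval of -0.29 to 0.22, Hexa by -0.01 (-0.17 to 0.16), Galc by -0.03 (-0.37 to 0.30), Naglu by -0.08 (-0.31 to 0.15) and Atp6v0a1 by -0.20 (-0.44 to 0.04). Lower values that missed the threshold were those of Ctsl (-0.22, -0.38 to -0.06) and Ctsz (-0.23, -0.43 to -0.04).

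**Figure D4:**
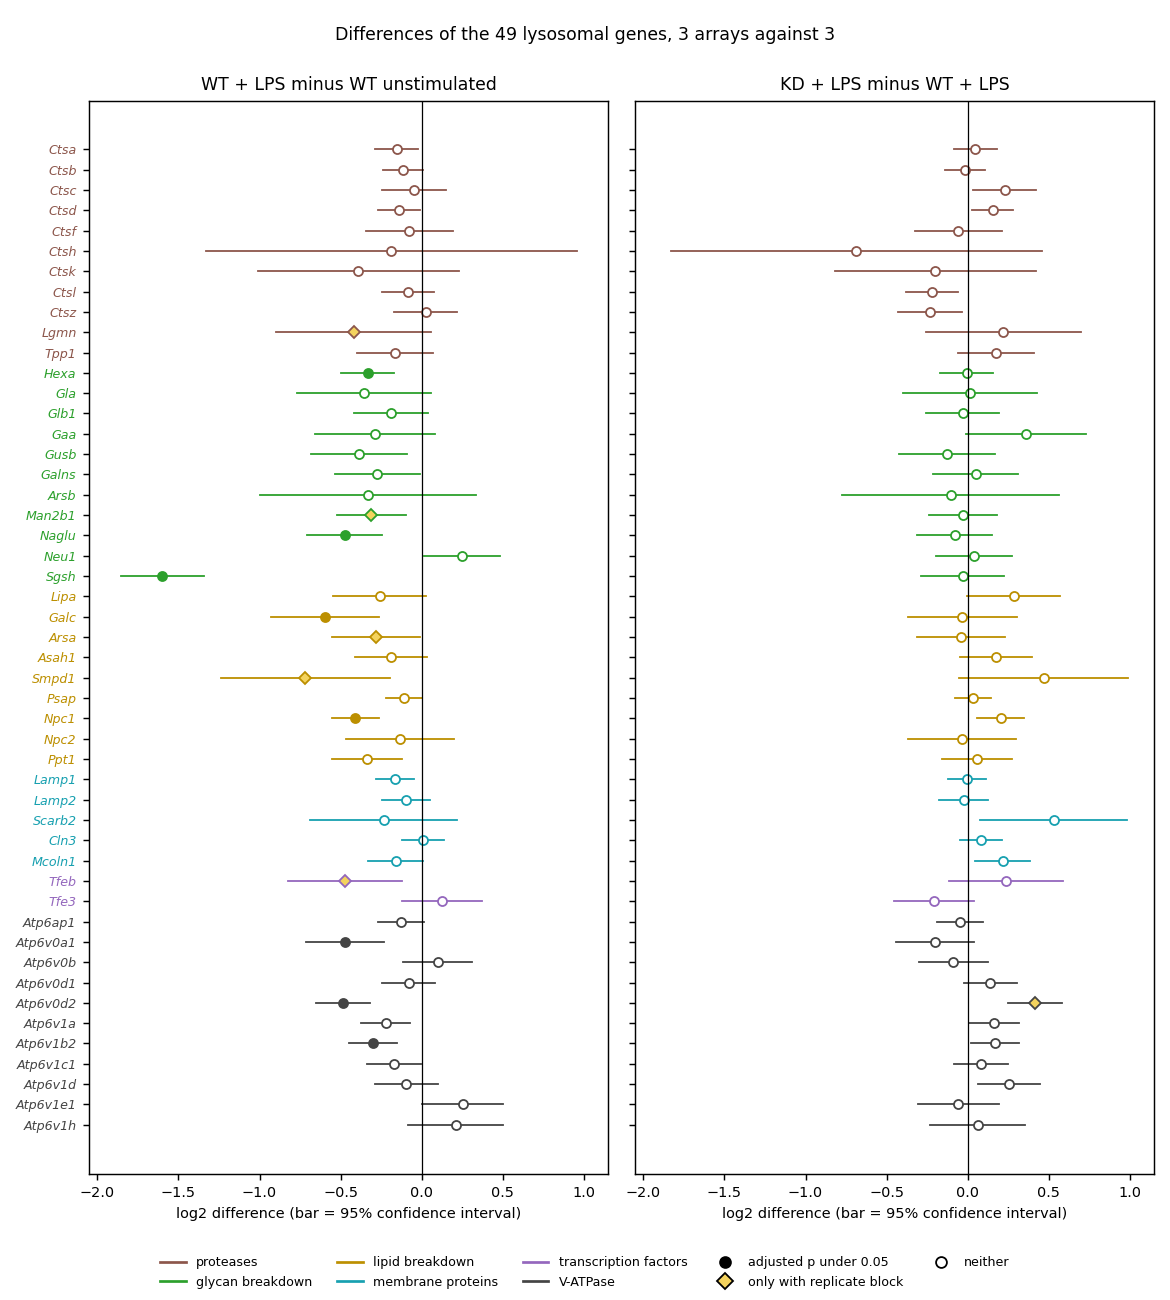
Log2 differences of the 49 lysosomal genes with 95% confidence intervals (3 arrays against 3), for LPS in wild-type cells (left) and for knockdown against wild-type cells after LPS (right); filled circles have an adjusted p under 0.05, diamonds only in the paired fit, and colours mark roles. On the left 8 genes are called, all lower; on the right no circle is filled and Atp6v0d2, at 0.41, is the only diamond.

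LPS-treated knockdown cells were also set against unstimulated wild-type cells, a comparison in which LPS, the hairpin and the transduction act together and which shares its control arrays with the LPS comparison. It had 7 of 49 genes lower (14.3%) and none higher, against 6.64% and 4.23% of all genes. Among genes at or above the 40th percentile of level the shares were 10.6% and 6.8%. At a mean level of 12 or more they were 9.32% and 13.4%, and 4 of the 31 lysosomal genes at that level were called lower. The 7 were Sgsh, Atp6v0a1, Naglu, Hexa, Ctsl, Galc and Gusb. The median difference was -0.14 against 0.01 over all genes, and 20 genes had all knockdown values below all unstimulated values, against 15.0% of all genes. That share was 23.1% at or above the 40th percentile of level and 23.8% at a mean level of 12 or more. Dendritic cell markers had a median difference of -1.20 in this comparison with 2 of 12 called lower, and 1 of 9 macrophage and 1 of 10 mast cell and basophil markers were called lower. Their part in these values was not tested.

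Sgsh was 3.10-fold lower (difference -1.63, SE 0.11, adjusted p = 0.000263), beside 3.03-fold in wild-type cells with LPS. Atp6v0a1 was lower by a difference of -0.67 (SE 0.10, adjusted p = 0.00597), beside -0.47 in wild-type cells. Naglu was at -0.56 (adjusted p = 0.011), Galc at -0.63 (adjusted p = 0.029), Hexa at -0.34 (adjusted p = 0.0206) and Gusb at -0.52 (adjusted p = 0.0397). Over the alternatives the adjusted p ran from 0.0192 to 0.102 for Galc, 0.014 to 0.0687 for Hexa and 0.0225 to 0.12 for Gusb. Ctsl, a cathepsin that degrades the invariant chain, was at 13.30, 13.40 and 13.46 without stimulation, at 13.25, 13.33 and 13.31 in wild-type cells with LPS, and at 13.04, 13.18 and 13.01 in knockdown cells. Its knockdown values lay below all 6 wild-type values, and it was lower than in unstimulated cells by a difference of -0.31 (SE 0.07, adjusted p = 0.0269). Over the alternatives the adjusted p of Ctsl ran from 0.0194 to 0.107.

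The 3 genes that fell with LPS in wild-type cells and were not called here were Npc1 at -0.21 (SE 0.06, adjusted p = 0.0764), Atp6v1b2 at -0.14 (SE 0.06, adjusted p = 0.261) and Atp6v0d2 at -0.07 (95% interval -0.24 to 0.09). Ctsh (-0.87, SE 0.50) and Ctsk (-0.59, SE 0.27) were among the 5 largest differences without being called. The paired fit called 10 lower, adding Man2b1, Arsa and Tfeb, and 1 higher, Neu1 (0.29, paired adjusted p = 0.0447, 0.0447 to 0.336 over the alternatives), against 8.65% and 5.62% of all genes. Leaving out an array gave 3 to 9 lower genes, with 4 without unstimulated replicate 1 and 3 without unstimulated replicate 3 or knockdown replicate 3, fits in which 3.01% to 3.21% of all genes were lower, and 9 without knockdown replicate 2, with 6.92%. Sgsh, Naglu and Atp6v0a1 were called in each. Median-centred arrays gave 4, and without the 3 arrays numbered 2 there were 13 lower and 2 higher (Atp6v1e1 and Atp6v1h), against 12.5% and 6.59% of all genes.

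Other genes of the pathway were read from 7 lists with 128 genes, of which 119 were measured. LPS in wild-type cells lowered 16 of them and raised 4 (13.4% and 3.36%, against 6.86% and 3.99% of all genes), with a median difference of -0.17. Of the genes at or above the 40th percentile of level, 11% were called lower and 6.19% higher. Among 20 other hydrolases and activators, 4 fell: Pla2g15, a lysosomal phospholipase (-1.24, SE 0.14), Manba, the beta-mannosidase (-1.10, SE 0.21), Fuca1, the alpha-fucosidase (-0.48, SE 0.11), and Nagpa, which uncovers the mannose phosphate signal (-0.29, SE 0.07). Of 24 other membrane proteins 7 fell and 2 rose; the 4 with the smallest p were the cystine exporter Ctns (-0.80, SE 0.09), the cation channel Tpcn1 (-1.14, SE 0.15), the peptide transporter Slc15a3 (0.82, SE 0.12) and Cln6 (-0.76, SE 0.11). None of 11 other proteases and inhibitors was called.

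The shares called in the next lists stand beside 6.86% of all genes called lower and 3.99% called higher. In the V-ATPase list 1 of 13 fell (7.69%), Wdr7 (-0.98, SE 0.16), a partner of the Rabconnectin complex that acts on the pump. In enzyme sorting 1 of 15 fell (6.67%), Vps39 (-0.63, SE 0.13), a subunit of the tether that fuses vesicles with the lysosome. Among 20 regulators Mitf, a relative of Tfeb, rose (0.41, SE 0.08) and Lamtor4 fell (-0.64, SE 0.16), which is 5% in each direction. The paired fit called 4 of the regulators lower, against 9.57% of all genes. Among 16 autophagy genes the receptor Sqstm1 rose (0.56, SE 0.12), and Atg7 (-0.70, SE 0.10) and the kinase Ulk1 (-0.59, SE 0.12) fell, with 4 lower in the paired fit.

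In knockdown against wild-type cells after LPS, 1 of the 119 rose (0.84%) and none fell, against 0.401% and 0.361% of all genes. It was Sort1, the sorting receptor sortilin, at 11.10, 10.86 and 11.05 in unstimulated arrays, 10.60, 10.73 and 10.65 in wild-type arrays with LPS, and 12.19, 12.47 and 12.22 in knockdown arrays. The knockdown values lay above all 6 wild-type values (difference 1.63, SE 0.10, adjusted p = 0.000924). The paired fit added Rragd, a GTPase of nutrient sensing (1.04, paired adjusted p = 0.0215), and Atg7 (0.43, paired adjusted p = 0.0433). Against unstimulated cells the knockdown arrays had 18 of the 119 lower and 5 higher (15.1% and 4.2%, against 6.64% and 4.23% of all genes). The lower genes named here are a selection of the 18. They are Ctns (-1.20), Tpcn1 (-1.48), Pla2g15 (-0.96), Manba (-0.98), Creg1 (-0.61) and Gm2a (-0.42), and the proteases Prcp (-0.61), Ctss (-0.47) and Scpep1 (-0.36). The 5 higher were Sort1 (1.29), Sqstm1 (0.70), Gnptab (0.53), Slc15a3 (0.53) and Mitf (0.37). Of the genes at or above the 40th percentile of level, 10.6% were called lower and 6.8% higher in this comparison.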

How the data were processed

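The authors deposited log2 values per probe set made with RMA (background correction, normalization and summary), per the submitters' processing notes, which name no version. They were used with no further normalization. RMA assumes like value distributions in all arrays, so a shift of the whole transcriptome would not show. Array number limits the precision. Of 35556 probe sets, 21789 named 1 gene, 1621 several and 12146 none, by the platform's gene table. Symbols were updated by Entrez identifier through RefSeq (21698 matched), which left 19938 genes.

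Group means were estimated with limma 3.58.1 (lmFit and eBayes) in R 4.3.3 from all 9 arrays, with 6 residual and 2.31 prior degrees of freedom; the script was tested on simulated data. Groups followed the labels. Over genes, deviations from group means had correlations of 0.138 to 0.481 between same-numbered arrays (9 pairs) and of -0.414 to 0.254 otherwise (18 pairs), and the numbers were therefore used as pairs. That rests on the data and not on a label.

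The members and lists were chosen with earlier results of these data known. All 9 values are given for members called in either fit and for the 5 largest differences per comparison. For LPS in wild-type cells and for knockdown after LPS, up to 4 called genes per list are named, by smallest p. For LPS-treated knockdown against unstimulated cells the lower genes named are a selection. Alternatives were a replicate block, a filter at the 40th percentile, probe set means, median-centring, repeated quantile normalization, 2 groups per fit, a trended and robust prior, all probe sets, and each array left out.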

Additional observations from a re-analysis of the deposited data

How the results depend on the processing

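Median differences of the 49 genes kept their sign in every alternative: -0.25 to -0.16 for LPS, 0.0015 to 0.07 for knockdown after LPS and -0.17 to -0.11 for LPS-treated knockdown against unstimulated cells. None of the 49 genes was called in opposite directions by different fits of a comparison. Differences of single genes that were not called could change sign. For Galc, the knockdown difference after LPS was -0.03 over all arrays, and 0.44, -0.42 and -0.12 in replicate numbers 1, 2 and 3. It was therefore above 0 without the arrays numbered 2. With LPS, lower genes numbered 8, 3 to 11 with an array left out and 19 without the 3 arrays numbered 2, which also gave 1 higher. In knockdown after LPS, the higher count of 0 became 1 with the replicate block (paired fit), repeated quantile normalization or the trended prior, and 2 without the arrays numbered 2. Against unstimulated cells, 7 lower became 4 with median-centred arrays, 13 without the arrays numbered 2 and 3 to 9 with an array left out; 0 higher became 1 with the replicate block, 2 without the arrays numbered 2 and 0 to 1 with an array left out. Counts of genes lower with LPS in the other lists also moved beyond a set ratio in some alternatives. For the regulators this was so in 11 alternatives and not in 4, for other hydrolases in 9 and not in 6. It was so in 8 for enzyme sorting, 6 for autophagy, 4 each for the membrane protein and V-ATPase lists, and 1 for proteases. The cause of these changes was not tested, except that fewer arrays or a larger set of tests enter some fits. With 3 arrays a group, differences of the size most members showed lie near the spread between arrays.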
